A study of Mus musculus with 14 samples.

Results

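The genes described here are the collagen genes and a fixed set of other extracellular matrix genes of the mouse heart. A gene was a member if its symbol named a collagen chain, or was 1 of 19 other symbols (fibronectin, periostin, thrombospondins, proteoglycans, elastic fibre genes, TIMP inhibitors and others), and if its counts summed to at least 50 over the 14 libraries. Such a symbol was carried by 62 of the 23337 genes counted, and 47 of them were members, 28 collagen genes and all 19 others. The members nearest the limit were Col27a1 with 53, Col7a1 with 57 and Col4a6 with 58 summed counts, and just under it lay Col12a1 with 39, Col8a2 with 23 and Col25a1 with 22.

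The libraries were made from cardiomyocytes that were isolated by Langendorff perfusion of the heart and purified by fluorescence-activated sorting at 4 weeks of age. All mice carried Rosa-Cas9GFP, an allele named for the Cas9 nuclease and a green fluorescent protein, and all received an adeno-associated virus at postnatal day 1. The KO group (n = 7) received AAV-Ryr2gRNA, whose name gives a guide RNA for Ryr2, the calcium release channel of the sarcoplasmic reticulum, and the Ctrl group (n = 7) received AAV-Cre, named for the Cre recombinase. The promoters of the guide, the Cre and the Cas9, and any Cre in the guide virus, were not given in the sources used here. Guide and viral vector therefore cannot be told apart as sources of a difference. As no label says that the 7 samples of a group were separate animals, the p-values reflect sample-to-sample spread only, some of which may be technical.

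Collagens are built from 3 chains wound into a triple helix, and the family divides by the structure it forms. Type IV collagen makes the sheet-like basement membrane that wraps each cardiomyocyte and each capillary, and types XV and XVIII are proteoglycans of the same zone. Types I, III and V form the banded fibrils of the interstitium, which in the heart come mainly from fibroblasts. Matricellular proteins such as Ctgf, Cyr61 and periostin bind matrix and cell receptors rather than bearing load, and Ctgf and Cyr61 are also transcribed by cardiomyocytes.

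Total counts per library were 5689335 to 11064715 in KO and 6313220 to 13165662 in Ctrl. Levels are given as CPM (counts scaled to library size) with TMM-scaled library sizes, as lowest, median and highest of 7 libraries, and log2 fold changes are KO minus Ctrl. Ryr2 averaged 309 ± 48.1 CPM in KO and 675 ± 71.4 CPM in Ctrl (SD, n = 7 each), a log2 fold change of -1.13 (adjusted p = 3.3e-07, edgeR quasi-likelihood test), so Ryr2 RNA was lower in KO but still present. RNA of the labelled cell type was abundant: the 10 cardiomyocyte markers summed to 89787 to 120369 CPM in KO and 109770 to 129993 CPM in Ctrl. Their mean sum in KO was 0.891 times that in Ctrl. Of these markers 5 were called lower in KO, against 13.7% of all genes, and 0 higher. In 4 libraries, with indices 7 to 10 in the sequencing names (KO replicates 4 and 5, Ctrl replicates 4 and 5), the values stood apart on the second principal component, which held 24.2% of the variance. The labels name no batch for them. They hold 2 libraries of each group, so the count of calls and the genes whose call depends on them are also given without them (5 libraries against 5) and within them (2 against 2).

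These 4 libraries were the highest of their group for most matrix genes. The median tested member was 3.42 times as high in libraries 7 to 10 as in the others within KO and 2.31 times within Ctrl, against 0.972 and 0.977 times for the median of all genes tested. In 25 of 38 tested members the ratio was above 2 in both groups. Markers of fibroblasts, macrophages and endothelium were also higher in these libraries. The whole fibroblast list summed to 215 to 444 CPM in KO and 116 to 195 CPM in Ctrl, without overlap. It was 1.31 times as high in libraries 7 to 10 within KO and 1.44 times within Ctrl. Gpx3 held most of the list's CPM and was set aside after its values were seen. Without it the list summed to 27.8 to 144 CPM in KO and 27.4 to 83.0 CPM in Ctrl. This shorter list was 3.27 times as high in libraries 7 to 10 within KO and 2.2 times within Ctrl. Summed macrophage markers were 65.1 to 475 CPM in KO and 27.1 to 127 CPM in Ctrl, at 4.54 times the others in libraries 7 to 10 within KO and 2.94 times within Ctrl. Endothelial markers were 342 to 1256 CPM in KO and 423 to 1136 CPM in Ctrl, at 2.61 and 1.71 times. Pericyte and smooth muscle markers summed to 0.879 times in KO and 1.12 times in Ctrl (1.37 and 1.17 times without Acta2, their most abundant gene, which was set aside after its values were seen). Abcc9, which held most of the remaining CPM, was at 1.02 and 0.969 times. Every other gene of that list was above 1 in both groups. They ran from 1.14 (Myh11) to 2.93 times (Kcnj8) in KO, and from 1.39 (Cspg4) to 5.6 times (Cnn1) in Ctrl. No marker of fibroblasts, endothelium, pericytes or macrophages was at 0 in all libraries. Markers of epicardium, Schwann cells and adipocytes summed to 4.39 to 26.1 CPM in KO and 5.52 to 18.5 CPM in Ctrl, and Cfd, Plin1 and Retn were at 0 in all libraries. Cardiomyocyte markers summed to 0.858 times the others in libraries 7 to 10 within KO and 0.905 times within Ctrl. In bulk RNA, more cells of a type and more RNA per cell cannot be told apart, and the part of these markers in the results was not tested.

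**Figure D1:**
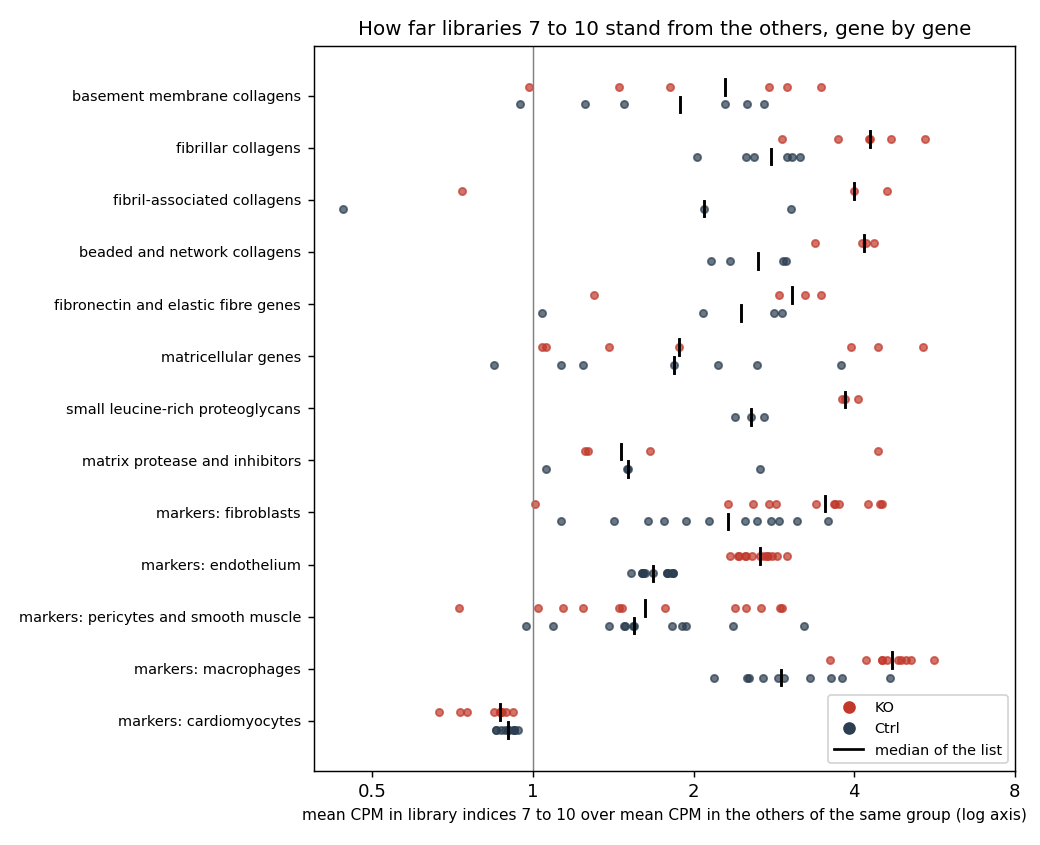
Ratio of the mean level in library indices 7 to 10 to the mean level in the other libraries, for each tested matrix gene by class and each tested marker gene, on a log axis, with KO points (red) above Ctrl points (dark) in each row and black ticks at the medians. The transmembrane Col13a1 is not drawn. The median over all members is 3.42 in KO and 2.31 in Ctrl, and Col4a5 lies near 1 in both groups (0.982 in KO and 0.944 in Ctrl).

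Of the 47 members 38 passed the filter on low counts, and 5 of these changed in KO: Ctgf, Thbs4, Col22a1 and Col8a1 rose, and Fbln1 fell (adjusted p under 0.05, edgeR). These 4 higher members were 10.5% of those tested, against 14.5% of all 11170 genes tested, and the 1 lower member was 2.63%, against 13.7% of all genes. Called members were therefore 13.2%, below the 28.2% of all genes, and 8 members had an unadjusted p under 0.05. The log2 fold change was above 0 in 34 of 38 members, with a median of 0.42, against 52.2% and a median of 0.01 over all genes. The groups did not overlap in 3 members that were higher (Ctgf, Thbs4 and Col22a1), against 5.84% of all genes, and in none that was lower, against 4.71%.

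The count of higher members depended on libraries 7 to 10. Without them 7 of 36 tested members were called (19.4%, against 24.1% of all genes), of which 6 rose (16.7%, against 12.5%) and 1 fell (2.78%, against 11.6%), and the median log2 fold change was 0.21. Within them 23 of 41 were called (56.1%, against 12.4% of all genes), all of them higher (against 5.84%) and none lower (against 6.59%), and the median was 0.65. With a term for these libraries in the fit, 15 of 38 were called (39.5%, against 32.7% of all genes), of which 14 rose (36.8%, against 16.9%) and 1 fell (2.63%, against 15.8%). The difference between both sets of libraries was not called for any member, nor for any of the 11170 genes (edgeR interaction test). At an unadjusted p under 0.05 that test picked 5 members (Col6a1, Col1a1, Postn, Col16a1 and Mmp2) and 339 genes (3.03%).

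**Figure D2:**
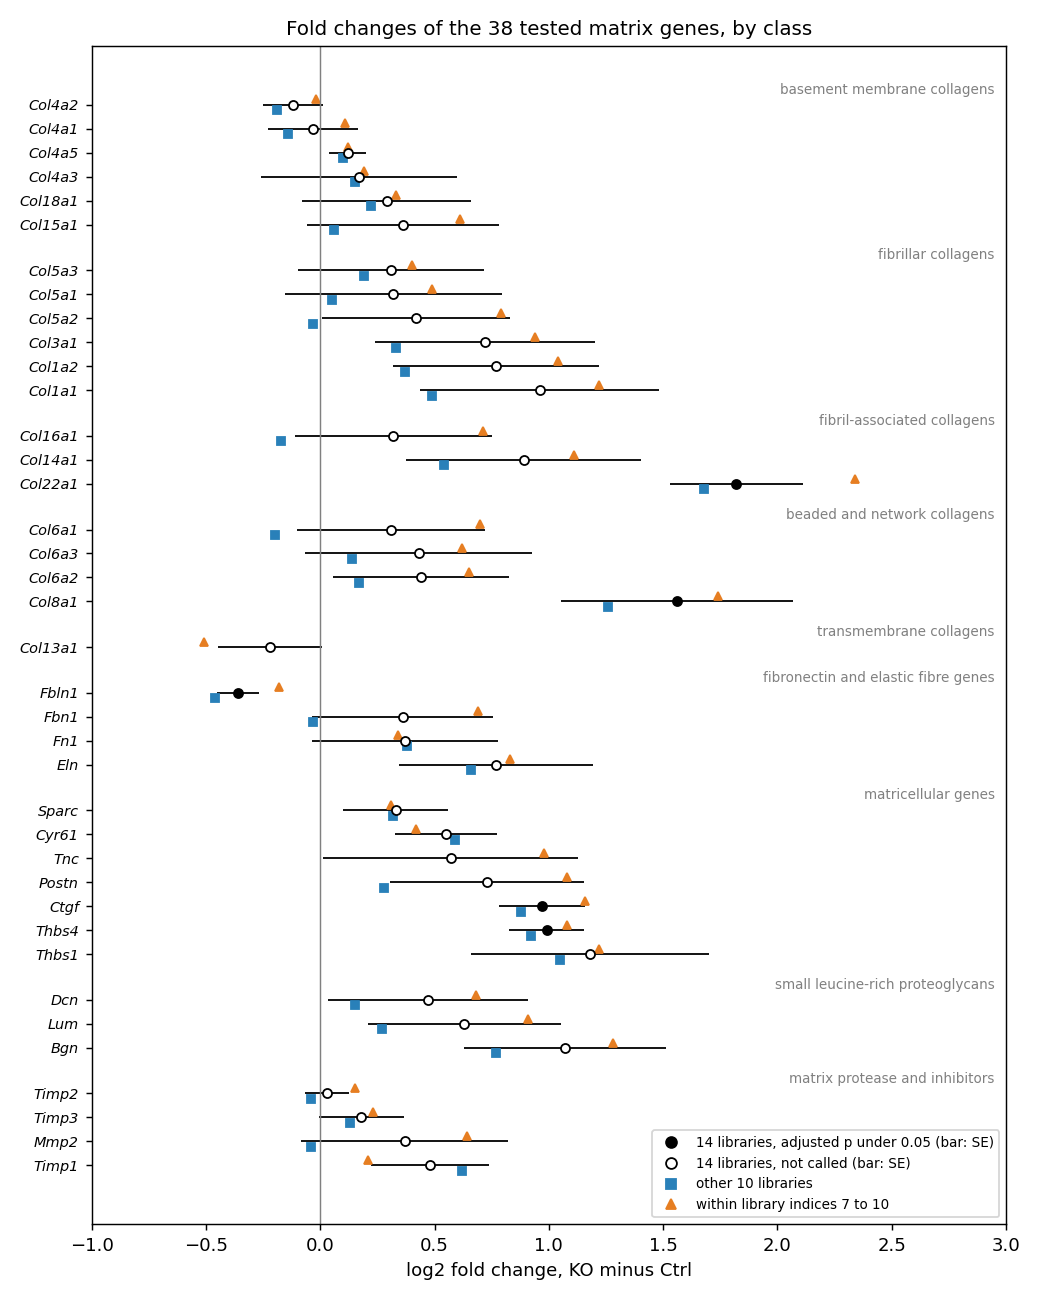
Log2 fold change (KO minus Ctrl) with its standard error for the 38 tested members, by class. Filled black points were called over all 14 libraries and open points were not; blue squares leave out library indices 7 to 10 and orange triangles use these alone. The median is 0.42 over all libraries, 0.21 without these 4 and 0.65 within them.

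Of the basement membrane collagens 0 of 6 tested were called in either direction, against 28.2% of all genes, and few genes were compared. At an unadjusted p under 0.05 there were also 0 (edgeR), while DESeq2 called 1, the low-count Col7a1. Col4a1 (chr8:11198423-11312826, mm10, minus strand) and Col4a2 (chr8:11312829-11449287, plus strand), neighbours that encode the main chains of type IV collagen, were the most abundant collagens. Col4a1 had 380, 655 and 1040 CPM in KO and 534, 616 and 928 CPM in Ctrl (lowest, median, highest), a log2 fold change of -0.03 ± 0.197 (SE, adjusted p = 0.94, edgeR). The groups overlapped, KO had both the lowest and the highest library, and the value was -0.14 without libraries 7 to 10 and 0.11 within them. Col4a2 had 316, 453 and 656 CPM in KO and 431, 475 and 578 CPM in Ctrl, with a log2 fold change of -0.12 ± 0.131 (adjusted p = 0.56). Per kilobase of exon, Col4a1 averaged 98.6 CPM in KO and 100 CPM in Ctrl, and its ratio to Col4a2 had a median of 1.31 in KO and 1.28 in Ctrl. Between sets of libraries the same ratio was 1.38 to 1.69 in indices 7 to 10 and 1.17 to 1.43 in the others.

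Col4a5 (chrX:141475419-141689235), a chain of the alternative type IV network, was the one abundant collagen that did not move with libraries 7 to 10. It had 129, 152 and 184 CPM in KO and 128, 138 and 166 CPM in Ctrl, a log2 fold change of 0.12 ± 0.0796 (adjusted p = 0.30), and the groups overlapped. Per kilobase its median ratio to Col4a1 was 0.160 in libraries 7 to 10 and 0.267 in the others. Its partner chain Col4a3 had medians of 2.01 CPM in KO and 1.99 CPM in Ctrl. Col15a1, a basement membrane proteoglycan of capillaries and muscle, had 3.71, 8.33 and 24.5 CPM in KO and 3.80, 7.63 and 16.5 CPM in Ctrl (log2 fold change 0.36 ± 0.420, adjusted p = 0.57). It was called higher within libraries 7 to 10 (0.61, adjusted p = 0.036), and was at 0.06 without them. Col18a1, the source of endostatin, had 6.59, 10.9 and 26.3 CPM in KO and 5.35, 8.43 and 20.3 CPM in Ctrl (0.29 ± 0.370, adjusted p = 0.61). Endothelial markers, which share this membrane, overlapped between the groups. Over all libraries 0 of 13 tested were called by edgeR (0 at an unadjusted p under 0.05) or by DESeq2, against 28.2% and 24.4% of all genes. Without libraries 7 to 10, 4 of 13 were called lower, against 11.6% of all genes.

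**Figure D3:**
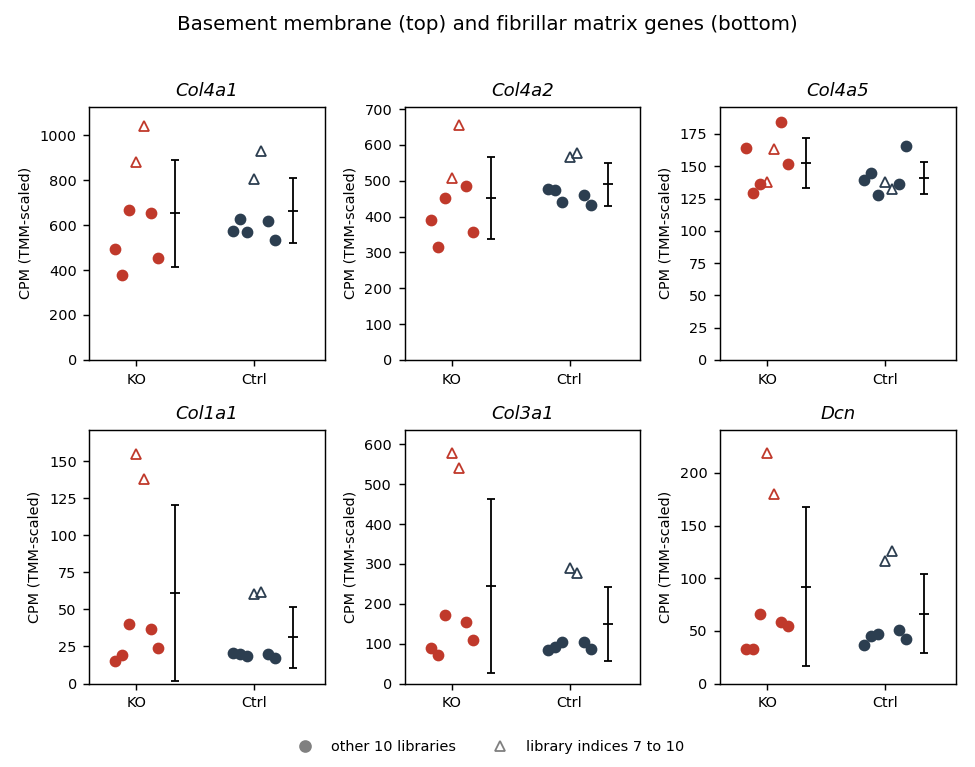
Level (CPM) of 3 basement membrane genes (top) and 3 fibrillar matrix genes (bottom) in each KO (left) and Ctrl (right) library; triangles are library indices 7 to 10, and bars are the mean ± SD of 7 libraries. In the bottom row the triangles are the highest points of both groups, and Col4a5 shows no such separation.

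The fibrillar collagens had log2 fold changes above 0 in all 6 tested genes but a wide spread. Over all libraries 0 of the 6 were called by edgeR (0 at an unadjusted p under 0.05) or by DESeq2. Among all genes 28.2% and 24.4% were called, and 6 genes are few to set against these shares. Col1a1 and Col1a2 encode both chains of type I collagen, the main load-bearing fibril. Col1a1 (chr11:94936270-94951856) had 15.2, 36.9 and 155 CPM in KO and 17.4, 19.8 and 61.8 CPM in Ctrl, a log2 fold change of 0.96 ± 0.523 (adjusted p = 0.19, edgeR). In each group libraries 7 to 10 were the highest, with 155 and 138 CPM in KO and 60.1 and 61.8 CPM in Ctrl. Without them the log2 fold change was 0.49 (adjusted p = 0.12), and within them Col1a1 rose by 1.22 (adjusted p = 7.4e-05).

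Col1a2 followed Col1a1, with 18.4, 42.1 and 135 CPM in KO and 18.6, 27.0 and 64.2 CPM in Ctrl (0.77 ± 0.450, adjusted p = 0.23). Per kilobase the median ratio of Col1a1 to Col1a2 was 1.02 in KO and 1.02 in Ctrl. Col3a1, the fibril collagen of distensible tissue, had 70.8, 155 and 578 CPM in KO and 85.2, 105 and 291 CPM in Ctrl (0.72 ± 0.481, adjusted p = 0.30). Its value was 0.33 without libraries 7 to 10 (adjusted p = 0.24) and 0.94 within them (adjusted p = 0.00013). The type V chains Col5a1, Col5a2 and Col5a3, which set fibril diameter, had log2 fold changes of 0.32, 0.42 and 0.31, and adjusted p of 0.50 to 0.67. All 8 fibrillar members together summed to 124, 261 and 947 CPM in KO and 142, 175 and 469 CPM in Ctrl.

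Within libraries 7 to 10 Col1a1, Col1a2, Col3a1, Col5a1 and Col5a2 were called higher, and with a term for them Col1a1, Col1a2 and Col3a1 were. Over the class the median log2 fold change was 0.57 for fibrillar and 0.15 for basement membrane collagens, against 0.01 for all genes. The difference between both classes was not tested. The fibroblast markers were called higher in 1 of 12 tested genes over all libraries (Gpx3), against 14.5% of all genes. Within libraries 7 to 10 they were called higher in 3 of 14 (against 5.84%), beside the 5 fibrillar collagens there. The median log2 fold change of the whole fibroblast list, with Gpx3, was 0.43 over all libraries, 0.29 without libraries 7 to 10 and 0.73 within them. Without Gpx3 it was 0.42, 0.19 and 0.70. The fibrillar collagens had 0.57, 0.26 and 0.86.

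Col22a1 (chr15:71798476-72034227), a fibril-associated collagen known from muscle-tendon junctions, rose the most of all tested members on the log2 scale. It had 1.81, 2.85 and 3.63 CPM in KO and 0.325, 0.613 and 1.38 CPM in Ctrl, a log2 fold change of 1.82 ± 0.292 (adjusted p = 0.00018, edgeR). The groups did not overlap, though the counts were low, with sums of 153 in KO and 41 in Ctrl. Unlike the fibrillar genes it was not raised in libraries 7 to 10, at 0.736 times the others in KO and 0.441 times in Ctrl, and its log2 fold change was 1.68 without them (adjusted p = 0.00083) and 2.34 within them (adjusted p = 0.018). The other fibril-associated members tested, Col14a1 and Col16a1, had log2 fold changes of 0.89 and 0.32 (adjusted p = 0.22 and 0.64). Col14a1 was called higher within libraries 7 to 10 (1.11, adjusted p = 0.012) and not without them (0.54, adjusted p = 0.24).

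Col8a1 (chr16:57624256-57754737, minus strand), a short-chain collagen of vessel walls that forms hexagonal nets, was higher in KO. It had 3.0, 8.47 and 30.2 CPM in KO and 2.06, 2.61 and 8.68 CPM in Ctrl, a log2 fold change of 1.56 ± 0.509 (adjusted p = 0.030, edgeR). The groups overlapped, and libraries 7 to 10 were the highest in both, with 30.2 and 23.4 CPM in KO and 6.82 and 8.68 CPM in Ctrl. The call held without them (1.26, adjusted p = 0.011) and within them (1.74, adjusted p = 0.00047), but it was lost on leaving out any one of Ctrl replicates 1, 2, 3, 6 and 7 or KO replicates 4 and 5, where the adjusted p reached 0.079. The beaded type VI chains Col6a1, Col6a2 and Col6a3, which link cells to the interstitium, were not called (0.31, 0.44 and 0.43, adjusted p of 0.45 to 0.64), while within libraries 7 to 10 Col6a1 (0.70, adjusted p = 0.0032) and Col6a2 (0.65, adjusted p = 0.007) were called higher. Without these libraries the 3 were at -0.20, 0.17 and 0.14 and not called. Col13a1, a transmembrane collagen, was at -0.22 (adjusted p = 0.53). Markers of pericytes and smooth muscle, the cells of the vessel wall, summed to 1436 to 2286 CPM in KO and 1013 to 1329 CPM in Ctrl without overlap. Of 12 tested, Cspg4, Acta2 and Tagln were called higher (against 14.5% of all genes) and Abcc9 lower (against 13.7%). Acta2 alone averaged 1211 CPM in KO and 696 CPM in Ctrl, and without it the list overlapped, at 318 to 597 CPM in KO and 401 to 593 CPM in Ctrl. In libraries 7 to 10 Acta2 was at 0.728 times the others in KO and 1.09 times in Ctrl. Abcc9 was at 1.02 and 0.969 times, while the rest of the list was above 1 in both groups. Which cells gave this RNA was not tested, so the sum cannot be read as a level of vessel wall cells.

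**Figure D4:**
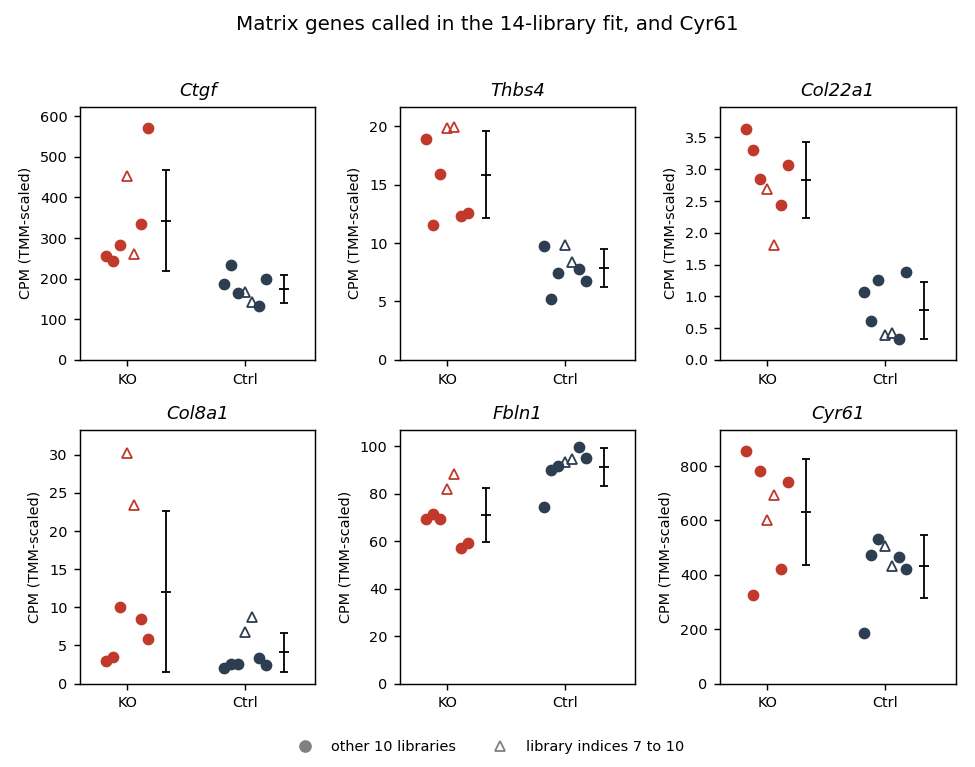
Level (CPM) of the 5 called members and of Cyr61 in each KO (left) and Ctrl (right) library; triangles are library indices 7 to 10, and bars are the mean ± SD of 7 libraries. The groups do not overlap for Ctgf, Thbs4 and Col22a1, and Fbln1 is the one gene of the called 5 that is lower in KO.

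Ctgf (also named Ccn2, chr10:24595442-24598682, plus strand), a matricellular protein induced by stretch and by TGF-beta, had 244, 282 and 572 CPM in KO and 132, 168 and 235 CPM in Ctrl. Its log2 fold change was 0.97 ± 0.187 (adjusted p = 0.00086, edgeR), and every KO library was above every Ctrl library. It was called without libraries 7 to 10 (0.88, adjusted p = 0.0076) and within them (1.16, adjusted p = 0.0038). These libraries were not raised for Ctgf, at 1.06 times the others in KO and 0.847 times in Ctrl. Its relative Cyr61 (Ccn1, chr3:145646971-145649985, minus strand) had 326, 693 and 854 CPM in KO and 184, 464 and 533 CPM in Ctrl. That log2 fold change, 0.55 ± 0.222, did not pass the test (adjusted p = 0.074) and the groups overlapped. Cyr61 was called higher within libraries 7 to 10 (0.42, adjusted p = 0.031) and not without them (0.59, adjusted p = 0.14). Cyr61 and Ctgf are short transcripts, and per kilobase they averaged 311 and 143 CPM in KO and 212 and 72.9 CPM in Ctrl, among the highest of the members on that scale.

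Thbs4 (chr13:92751586-92794818, minus strand), thrombospondin 4, which is known in the stressed heart both as a matrix protein and inside the endoplasmic reticulum, also rose. It had 11.5, 15.9 and 19.9 CPM in KO and 5.21, 7.80 and 9.84 CPM in Ctrl, a log2 fold change of 0.99 ± 0.165 (adjusted p = 0.00025, edgeR), with no overlap between the groups. The value was 0.92 without libraries 7 to 10 (adjusted p = 0.002) and 1.08 within them (adjusted p = 0.0038). Thbs1, a relative that activates latent TGF-beta, had 3.44, 5.62 and 28.0 CPM in KO and 1.38, 2.76 and 10.1 CPM in Ctrl (1.18 ± 0.522, adjusted p = 0.11). Thbs1 was called higher without libraries 7 to 10 (1.05, adjusted p = 0.011) and within them (1.22, adjusted p = 0.011).

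Postn, periostin, a product of activated fibroblasts, had 11, 22 and 77.5 CPM in KO and 9.49, 17.1 and 35.7 CPM in Ctrl (0.73 ± 0.424, adjusted p = 0.22, edgeR). It was at 0.28 without libraries 7 to 10 (adjusted p = 0.43) and at 1.08 within them (adjusted p = 0.0011). Sparc, a collagen-binding glycoprotein, had 327, 396 and 770 CPM in KO and 241, 297 and 606 CPM in Ctrl (0.33 ± 0.230, adjusted p = 0.31). Tnc, tenascin C, was at 0.57 (adjusted p = 0.49). It was called higher within libraries 7 to 10 (0.98, adjusted p = 0.047) and had too few counts for the test without them.

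Ctgf and Cyr61 are known targets of the TEAD factors that act with YAP and TAZ, so promoters were searched for the TEAD letters GGAATG on both strands in the 250 bases before each start in the RefSeq table (GRCm38.p6). The letters were in 7 of 39 promoters of the 34 members that the table holds (Col18a1, Col20a1, Col3a1, Col6a2, Cyr61, Thbs4 and Timp1), against 12.6% of all 32851 promoters. Of the 5 called members the table gave Thbs4, Col8a1 and Fbln1, which are printed with Cyr61 because they show which members hold the letters and which do not. Each sequence is 5′ to 3′ on the gene's own strand and ends at the base before the start; capitals mark the match, which reads CATTCC on the printed strand.
Thbs4: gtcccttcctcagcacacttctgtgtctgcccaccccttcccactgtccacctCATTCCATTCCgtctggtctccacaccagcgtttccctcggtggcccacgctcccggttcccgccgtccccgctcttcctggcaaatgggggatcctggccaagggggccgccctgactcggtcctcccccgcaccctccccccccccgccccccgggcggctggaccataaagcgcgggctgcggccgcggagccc
Cyr61: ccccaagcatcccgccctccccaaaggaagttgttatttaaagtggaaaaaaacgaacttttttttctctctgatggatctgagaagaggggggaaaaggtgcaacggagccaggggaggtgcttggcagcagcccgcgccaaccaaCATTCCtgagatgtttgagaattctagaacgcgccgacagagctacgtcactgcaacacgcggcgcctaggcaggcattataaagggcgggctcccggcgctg
Col8a1: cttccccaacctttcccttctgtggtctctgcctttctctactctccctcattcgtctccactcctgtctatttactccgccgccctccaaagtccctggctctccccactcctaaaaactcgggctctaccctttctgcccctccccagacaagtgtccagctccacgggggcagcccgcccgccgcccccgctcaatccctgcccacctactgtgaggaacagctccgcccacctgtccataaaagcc
Fbln1: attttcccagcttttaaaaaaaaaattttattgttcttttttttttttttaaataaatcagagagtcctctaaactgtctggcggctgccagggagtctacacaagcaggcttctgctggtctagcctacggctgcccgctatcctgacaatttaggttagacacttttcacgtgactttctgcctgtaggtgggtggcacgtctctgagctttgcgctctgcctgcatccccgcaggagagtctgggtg
The Thbs4 window (chr13:92794819-92795068, minus strand) held a pair of matches that share 1 base, and the Cyr61 window (chr3:145649986-145650235, minus strand) held 1 match, from 103 to 98 bases before the start. The windows of Col8a1 (chr16:57754738-57754987, minus strand) and Fbln1 (chr15:85205699-85205948, plus strand) held none. A further Fbln1 window (chr15:85205758-85206007), which ends just before the first counted base of the gene, also held none and is not printed. Other motifs searched on both strands were AP-1 (TGANTCA, 1 member promoter, 6.75% of all), the CCAAT box (CCAAT, 10, 33.8%), the amino acid response element (TGATGCAA, 0, 0.791%) and the CArG box (0, 1.47%). A match is a description of these letters and not of binding.

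Fbln1 (chr15:85206008-85286294), fibulin 1, a calcium-binding glycoprotein of basement membranes and elastic fibres, was the one member that fell. It had 57.2, 69.5 and 88.3 CPM in KO and 74.4, 93.6 and 99.6 CPM in Ctrl, a log2 fold change of -0.36 ± 0.0934 (adjusted p = 0.0079, edgeR). The groups overlapped through Ctrl replicate 1 alone, since the other Ctrl libraries had at least 90.2 CPM. The decrease was called without libraries 7 to 10 (-0.46, adjusted p = 0.0025) and not within them (-0.18, adjusted p = 0.33). Fn1, fibronectin, the scaffold on which other matrix is laid, had 11.8, 18.7 and 56.8 CPM in KO and 7.60, 14.9 and 39.3 CPM in Ctrl (0.37 ± 0.408, adjusted p = 0.55). Eln, elastin, and Fbn1, the microfibril protein fibrillin 1, were at 0.77 and 0.36 (adjusted p = 0.20 and 0.56). Within libraries 7 to 10 both were called higher (Eln 0.83, adjusted p = 0.014, and Fbn1 0.69, adjusted p = 0.036), and without them neither was (0.66 and -0.03).

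The small leucine-rich proteoglycans, which coat collagen fibrils, were also raised in libraries 7 to 10, by a median of 3.84 times in KO and 2.56 times in Ctrl, against 4.28 and 2.79 times for the fibrillar collagens. Bgn, biglycan, had 6.22, 10.6 and 38.6 CPM in KO and 2.59, 6.31 and 14.9 CPM in Ctrl (1.07 ± 0.441, adjusted p = 0.083, edgeR), and it was called higher without libraries 7 to 10 (0.77, adjusted p = 0.045) and within them (1.28, adjusted p = 0.00061). Dcn, decorin, had 32.6, 58.4 and 219 CPM in KO and 37.0, 46.7 and 126 CPM in Ctrl (0.47 ± 0.437, adjusted p = 0.47), with 0.15 without these libraries and 0.68 within them. Lum, lumican, was at 0.63 (adjusted p = 0.29), with 0.27 without these libraries (adjusted p = 0.41) and 0.91 within them (adjusted p = 0.0018), where Dcn was called too (adjusted p = 0.0032). Macrophage markers were called higher in 3 of 10 tested genes over all libraries (Emr1, C1qb and Lyz2), against 14.5% of all genes. They were called higher in 8 of 9 without libraries 7 to 10 (against 12.5%) and in 11 of 13 within them (against 5.84%). Their median log2 fold change was 1.25, 1.09 and 1.31 in these 3 fits. A link of these markers to the matrix genes was not tested.

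The inhibitors of matrix metalloproteinases and Mmp2 were not called over all libraries: 0 of 4 passed, 0 at an unadjusted p under 0.05 (edgeR), and DESeq2 called 0. Among all genes edgeR called 28.2% and DESeq2 24.4%, and 4 genes are few to set against these shares. Timp1, the inducible inhibitor, had 1.42, 2.63 and 4.11 CPM in KO and 0.987, 2.07 and 2.75 CPM in Ctrl (0.48 ± 0.259, adjusted p = 0.19, edgeR). Timp3, which is bound to matrix, had 69.2, 94.2 and 156 CPM in KO and 56.8, 91.8 and 122 CPM in Ctrl (0.18 ± 0.187, adjusted p = 0.51), and Timp2 was at 0.03 (adjusted p = 0.84). Mmp2, a gelatinase made by stromal cells, had 7.10, 12.8 and 49.1 CPM in KO and 8.97, 11.6 and 30.0 CPM in Ctrl (0.37 ± 0.453, adjusted p = 0.60). Mmp2 was called higher within libraries 7 to 10 (0.64, adjusted p = 0.0097) and was at -0.04 without them. All groups overlapped.

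The 9 members that did not pass the filter were Col4a4, Col4a6, Col7a1, Col6a6, Col20a1, Col11a2, Col27a1, Col23a1 and Lox, the lysyl oxidase that crosslinks collagen. Col7a1, the anchoring fibril collagen, had 1, 6 and 10 counts in KO and 0, 2 and 3 counts in Ctrl (lowest, median, highest), with sums of 47 in KO and 10 in Ctrl. It was called higher with no filter (edgeR log2 fold change 2.08 ± 0.521, adjusted p = 0.0078) and by DESeq2 (2.16 ± 0.641, adjusted p = 0.005). It shares 36 exonic bases with Mir711, whose reads cannot be told apart from its own without strand. In the other 8 neither of those fits made a call. DESeq2 called 6 of the 47 members, 5 higher (12.4% of all genes were) and 1 lower (12%), with 24.4% of all genes called either way. The authors' deposited table gave 5 members a log2 fold change above 0 at an adjusted p under 0.05 (Ctgf 0.96, Thbs4 0.98, Col22a1 1.83, Col8a1 1.55 and Col7a1 2.16) and 1 below 0 (Fbln1 -0.37).

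Genes that act on these matrix proteins were read from 5 further lists. Among laminins and other basement membrane genes 4 of 15 tested rose (26.7%, against 14.5% of all genes) and 1 fell (6.67%, against 13.7%), with a median log2 fold change of 0.32. Lamb2, the laminin chain of mature muscle, averaged 920 ± 77.4 CPM in KO and 716 ± 45.2 CPM in Ctrl (SD, n = 7 each) and rose by 0.36 (adjusted p = 0.00033, edgeR) with no overlap. Lama5, a widely expressed laminin chain, averaged 124 ± 21.8 CPM in KO and 83.6 ± 17 CPM in Ctrl and rose by 0.56 (adjusted p = 0.004). Smoc2, a matricellular calcium-binding protein, was at 46.6 ± 15.5 CPM in KO and 72.5 ± 10.5 CPM in Ctrl and fell by 0.64 (adjusted p = 0.0091). Within libraries 7 to 10 none of these 3 was called (Lamb2 0.25, Lama5 0.55 and Smoc2 -0.24, adjusted p of 0.063 to 0.23).

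Enzymes that fold, modify and crosslink collagen were called higher in 8 of 28 tested genes (28.6%, against 14.5% of all genes) and lower in 3 (10.7%, against 13.7%), with a median of 0.16. Leprel1, a prolyl 3-hydroxylase now named P3h2, had the largest change of the 4 with the smallest p, with 18.9 ± 9.55 CPM in KO and 2.15 ± 0.715 CPM in Ctrl (3.11, adjusted p = 2.6e-06, edgeR). P4ha1, the catalytic subunit of prolyl 4-hydroxylase, was 106 ± 19.1 CPM in KO and 69.3 ± 6.21 CPM in Ctrl (0.62, adjusted p = 0.00022). Its partner P4hb, also a disulfide isomerase of the endoplasmic reticulum, rose by 0.77 (adjusted p = 1e-07), and Plod2, a lysyl hydroxylase, by 0.54 (adjusted p = 0.0013). The 3 genes that fell were Plod1, Pcolce2 and Adamts3, which hydroxylate lysine, enhance procollagen processing and cleave procollagen.

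Matrix receptors were called higher in 5 of 20 tested genes (25%, against 14.5% of all genes) and lower in 4 (20%, against 13.7%), with a median of 0.16. Cd44, the hyaluronan receptor, averaged 43.2 ± 7.41 CPM in KO and 18.7 ± 2.22 CPM in Ctrl (1.21, adjusted p = 6.4e-07, edgeR), and the groups did not overlap. Itga7, the laminin-binding integrin chain of muscle, rose by 0.43 (adjusted p = 0.00012), and Ddr1, a collagen receptor kinase, by 0.45 (adjusted p = 0.0002). Itgb1bp2, melusin, an integrin-binding protein of striated muscle, was at 209 ± 22.1 CPM in KO and 317 ± 27.6 CPM in Ctrl and fell by 0.60 (adjusted p = 1.3e-05).

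Other matrix proteases and inhibitors had 4 higher and 4 lower of 20 tested (20% each way, against 14.5% and 13.7% of all genes, median -0.02). Mmp23 averaged 7.62 ± 0.992 CPM in KO and 1.42 ± 1.04 CPM in Ctrl (2.41, adjusted p = 1.6e-05, edgeR), Ctsk, cathepsin K, a collagen-degrading protease, rose by 1.5 (adjusted p = 6.6e-05), and Adamts20 rose by 3.20 at 2.67 ± 0.880 CPM in KO and 0.279 ± 0.214 CPM in Ctrl (adjusted p = 7e-06). Mmp15, a membrane-bound metalloproteinase, fell by 0.60 (adjusted p = 6e-05). Among relatives of the matricellular and elastic fibre members 4 of 21 tested rose (19%, against 14.5% of all genes) and 1 fell (4.76%, against 13.7%), with a median of 0.36. Ltbp1, which holds latent TGF-beta in the matrix, was at 79.4 ± 17.5 CPM in KO and 116 ± 10.9 CPM in Ctrl and fell by 0.55 (adjusted p = 0.0028). Aspn, asporin, rose by 1.26 (adjusted p = 0.0051), Fbln5, fibulin 5, by 0.85 (adjusted p = 0.019), and Ltbp3 by 0.26 (adjusted p = 0.0078). Of the genes named from the last 4 lists for their small p, all were called without libraries 7 to 10. Within them Plod2 (0.26), Ddr1 (0.26), Ltbp3 (0.21) and Fbln5 (0.72) were not called, with adjusted p of 0.061 to 0.35, and the others were.

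**Figure D5:**
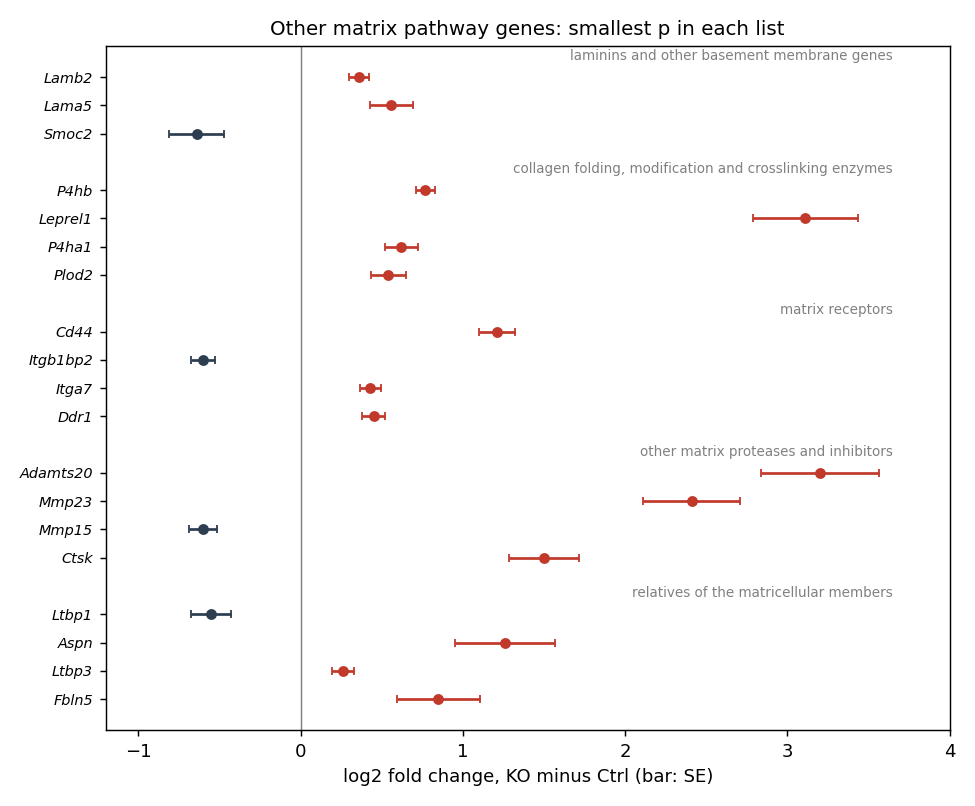
Log2 fold change (KO minus Ctrl) with its standard error for 19 further matrix-related genes, those with the smallest p of each list that are named in the text; red is higher and dark blue lower in KO. Adamts20 (3.20), Leprel1 (3.11) and Mmp23 (2.41) lie farthest to the right, and Smoc2, Itgb1bp2, Mmp15 and Ltbp1 lie left of 0.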

How the data were processed

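Poly(A) RNA of 14 sorted cardiomyocyte samples was sequenced from SMART-Seq v4 and Nextera XT libraries, per the labels' protocols. The deposited table lists raw read counts for 23337 genes. The submitters' processing notes name STAR, featureCounts, DESeq2, DESeq and mm10, while versions, annotation and strand setting were not given in the sources used here. A second table from the authors, a deposited comparison, gives log2 fold changes, p-values, a mean signal (counts divided by size factors) and a score (the Wald statistic), per the file headers.

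Counts were tested with edgeR 4.0.16 (R 4.3.3): filterByExpr, TMM, quasi-likelihood F test, two-sided, Benjamini-Hochberg adjustment over the 11170 genes that passed, threshold 0.05, no covariates. CPM used TMM-scaled library sizes, and CPM per kilobase the exonic length in the deposited table. Alternatives were DESeq2 1.42.0, RLE scaling, no filter, a replicate block, leaving out each replicate, and leaving out, using alone or adding a term for library indices 7 to 10. Only the edgeR fit of all 14 libraries without covariates was tried on simulated counts, which held no shift of library indices 7 to 10. Reads carry no molecular identifiers and no strand, so overlapping genes cannot be told apart. The matrix genes, their classes, the marker lists and the 5 further lists were chosen with earlier results of these data known. Named genes were all called members, 17 key matrix genes, and up to 4 tested genes of each further list with the smallest p (1 gene that this rule names is not reported here); other members are given by single values. Promoters came from RefSeq, and Ctgf and Col22a1 were not in that table.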

Additional observations from a re-analysis of the deposited data

Results flagged for a closer look

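Of 76 groups of 7 libraries examined (38 members in KO and in Ctrl), 3 had a library far from the rest, measured as its gap to the nearest library over the group's range. Chance gives such a flag in about 1 of 20 groups. Col4a3 in KO replicate 4 was 7.60 CPM, against 4.23 CPM for the next KO library. Fbln1 in Ctrl replicate 1 was 74.4 CPM, against 90.2 CPM for the nearest Ctrl library (a gap of 0.627 of the range), and it is the Ctrl library that overlaps the KO values. Cyr61 in Ctrl replicate 1 was 184 CPM, against 421 CPM for the nearest Ctrl library (0.679).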

How the results depend on the processing

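Members called higher numbered 4 over all libraries (14.5% of all genes were) and 5 with DESeq2 (12.4%). They numbered 14 with a term for library indices 7 to 10 (16.9%), 23 within these libraries (5.84%) and 6 without them (12.5%). With no filter they were 5, and with the replicate block 15. The share of all genes is not given for the no-filter and block fits, so their counts, in all or by class, cannot be set against it. Members called lower were 1 in each of these fits except within libraries 7 to 10 (0). With the replicate block, the term and the 4 libraries alone, fibrillar collagens called higher were 3, 3 and 5, and matrix genes other than collagens 9, 8 and 12. Matrix genes other than collagens were 4 higher without the 4 libraries and 0 lower within them. Other collagens were 5 higher within them. Of the basement membrane collagens, Col15a1 was higher there, and a different gene, Col7a1, was higher with DESeq2 and with no filter. Over all genes 689 were higher and 777 lower within the 4 libraries, against 1621 and 1528. The labels do not say that replicate numbers pair the libraries. Deviations of same-numbered libraries correlated at 0.0614 to 0.533, and 2 of 7 correlated best with their own number, which does not settle the question. Replicates 4 and 5 of both groups are the 4 libraries, so the block also takes up their level; the cause of its calls was not tested.

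Signs turned without libraries 7 to 10 for Col5a2 (-0.03), Col6a1 (-0.20), Timp2 (-0.04), Fbn1 (-0.03), Col16a1 (-0.17) and Mmp2 (-0.04), and within them for Col4a1 (0.11), none of which was called over all libraries. Leaving out each replicate gave 1 to 2 other collagens and 2 to 4 other matrix genes called higher. The log2 fold changes then ran from -0.06 to 0.56 (Col16a1), -0.18 to 0.07 (Col4a1), -0.19 to 0.50 (Col4a3), -0.02 to 0.58 (Col5a1), -0.03 to 0.53 (Col5a3), -0.01 to 0.47 (Col6a1), -0.03 to 0.66 (Col6a3), -0.05 to 0.51 (Fbn1) and -0.01 to 0.10 (Timp2). Ctgf, Thbs4, Col22a1 and Fbln1 kept their direction and call without any one replicate. Calls were gained by Thbs1 without Ctrl replicate 4 (adjusted p = 0.041, edgeR), Cyr61 without KO replicate 2 (0.022) or 6 (0.049), and Bgn without Ctrl replicate 5 or KO replicate 2 (0.048). Depth limits the 9 untested members.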
